A study of Mus musculus with 12 samples.

Results

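The ligands and receptors of the GDNF and neurotrophin families were followed across sorted cells of the E12.5 mouse neural tube. The 9 genes considered were Gfra1, Gfra2, Ret, Gdnf, Ntrk2, Ntrk3, Ngfr, Bdnf and Ntf3, and the members were all probe sets that the platform annotation assigns to one of them. This gave 32 of 45101 probe sets on the Affymetrix mouse expression array, for 8 of the 9 genes. Ntf3 was not analysed here, because the annotation used gives no probe set that symbol. The embryos of all groups carried ePet-EYFP, a transgene whose Pet-1 enhancer makes serotonin (5HT) neurons express yellow fluorescent protein (YFP). R+ are the YFP-positive cells of the rostral domain, between the mesencephalic and pontine flexures, and R- are the YFP-negative cells of the same tissue. C+ and C- are the YFP-positive and YFP-negative cells of the caudal domain, which runs on to the spinal cord. Each of the 4 populations was represented by 3 arrays, each from 200000 sorted cells, and R- and C- are mixtures of all other cell types of their domain. The labels call the replicates biological without naming litters, so the p-values reflect only how far these samples vary.

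GDNF family ligands bind a GFRα receptor anchored to the outer membrane, which then engages the receptor tyrosine kinase RET. Gfra1 encodes the preferred receptor of GDNF and Gfra2 that of neurturin. Neurotrophins bind Trk receptor tyrosine kinases, BDNF mainly TrkB (Ntrk2) and neurotrophin-3 mainly TrkC (Ntrk3), and all of them, as well as their precursors, bind the neurotrophin receptor encoded by Ngfr. BDNF is known to support the growth of serotonergic axons in the rodent brain.

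Expression is given as MAS5 signal, an intensity on a linear scale that the authors scaled to a common level on every array. Differences are given ± SE as log2(signal + 10), and adjusted p-values are those of limma with Benjamini-Hochberg adjustment over the 26061 probe sets that exceeded a signal of 107 (the overall median) on 3 or more arrays. A result is called where that p is under 0.05. Of the 32 member probe sets 18 passed this filter, from 7 genes. These were 2 of 3 for Gfra1, 3 of 5 for Gfra2, 1 of 2 for Ret, 6 of 8 for Ntrk2, 4 of 8 for Ntrk3, 1 of 3 for Ngfr and 1 of 2 for Bdnf. The single probe set of Gdnf did not pass, with a signal of 2 to 29 on the 12 arrays. Signals of different probe sets cannot be set against each other, since probes differ in how strongly they hybridize.

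The sorted populations carried the markers of their labels. All 8 serotonin neuron markers examined, among them Tph2 and Slc6a4, were called higher in R+ than in R- and in C+ than in C-. Their summed signal was 59556 to 65937 in R+, against 4665 to 5039 in R-. Caudally it was 43215 to 47351 in C+, against 2228 to 3297 in C-. Progenitor and cell cycle markers were lower in R+ than in R- for 7 of 8 genes, and likewise for 7 of 8 in C+ against C-. For beta-actin, the 3' control probe set divided by the 5' one, a ratio that rises where RNA is degraded or incompletely copied, gave 2.64 to 4.39 for the rostral arrays and 4.52 to 7.69 for the caudal arrays. The ranges do not overlap, so that this measure and the domain cannot be told apart. In sorted bulk samples, fewer cells of a type and less RNA per cell cannot be told apart either.

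RefSeq promoter windows of GRCm38.p6, from 250 bases before to 50 after an annotated start, were found for 6 of the 9 genes. The windows of Gfra1 (chr19:58455349-58455648, minus strand), Ngfr (chr11:95587649-95587948, minus strand) and Ntrk2 (chr13:58806319-58806618, plus strand) are shown because these are the genes with called differences below that have one. Each has a single window here. Capitals mark matches, on either strand, to 5 short motifs: the ETS core CCGGAA, the GATA site AGATAA, the LIM homeodomain core TAATTA, the Hox-Pbx site TGATNNAT and the E-box CAGCTG.
Gfra1: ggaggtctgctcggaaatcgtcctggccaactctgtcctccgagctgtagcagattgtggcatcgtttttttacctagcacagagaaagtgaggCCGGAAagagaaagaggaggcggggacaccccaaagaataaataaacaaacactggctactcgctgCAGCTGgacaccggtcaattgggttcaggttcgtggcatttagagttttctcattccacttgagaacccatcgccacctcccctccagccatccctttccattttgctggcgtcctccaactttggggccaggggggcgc
Ngfr: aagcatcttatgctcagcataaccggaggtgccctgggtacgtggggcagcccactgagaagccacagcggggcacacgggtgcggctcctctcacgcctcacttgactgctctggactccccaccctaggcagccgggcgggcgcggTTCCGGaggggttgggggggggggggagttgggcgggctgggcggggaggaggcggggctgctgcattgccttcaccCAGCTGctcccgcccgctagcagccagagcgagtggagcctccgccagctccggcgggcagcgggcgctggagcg
Ntrk2: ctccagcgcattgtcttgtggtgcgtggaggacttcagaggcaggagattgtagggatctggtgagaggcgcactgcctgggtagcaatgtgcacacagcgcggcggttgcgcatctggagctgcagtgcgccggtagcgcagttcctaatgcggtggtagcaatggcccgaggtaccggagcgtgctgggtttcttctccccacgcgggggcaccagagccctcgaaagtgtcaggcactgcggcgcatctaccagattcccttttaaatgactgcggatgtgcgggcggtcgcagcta
The Gfra1 and Ngfr windows each held 1 ETS core, on the plus strand of the window in Gfra1 and on the minus strand in Ngfr, and 1 E-box, and neither held the other 3 motifs. The Ntrk2 window held no match to any of the 5. None of the matches overlapped another. Of all 32851 promoter windows, 14.9% held the ETS core, 16.3% the E-box and 2.05% both, while 11.2% held the GATA site, 5.29% the LIM homeodomain core and 8.85% the Hox-Pbx site. A match describes letters in a window and does not show that a factor binds there.

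The GDNF receptor Gfra1 had opposite differences in the 2 domains. Its brightest probe set (1439015_at) read 4835, 5310 and 4690 in R+, against 2382, 3461 and 2892 in R-. In the caudal domain it read 785, 873 and 916 in C+, against 2197, 2448 and 2234 in C-. The R+ arrays lay above all others and the C+ arrays below all others, and R- and C- overlapped. Gfra1 was thus higher in R+ than in R- by 0.78 ± 0.15 (adjusted p = 0.00389) and lower in C+ than in C- by a difference of -1.41 ± 0.15 (adjusted p = 2.45e-05). The difference between these differences was itself called, at 2.19 ± 0.21 (adjusted p = 0.000132). R+ exceeded C+ by 2.51 ± 0.15, or 5.71-fold on this scale (adjusted p = 5.55e-07), while R- against C- gave 0.33 ± 0.15 (adjusted p = 0.402). These 5 results of the probe set were called, or for R- against C- not called, under every alternative run, and the signs held.

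A dimmer Gfra1 probe set (1450440_at) showed the same order at 373, 200 and 254 in R+ and 165, 84 and 159 in R-, and at 67, 41 and 57 in C+ and 136, 77 and 145 in C-. R+ was above R- and C+ below C- without overlap. R+ exceeded C+ by 2.11 ± 0.37 (adjusted p = 0.00559), which was 1.76 with the beta-actin ratio as a covariate and did not pass (adjusted p = 0.198). The differences within a domain, 0.98 ± 0.37 and -0.97 ± 0.37, did not pass (adjusted p = 0.157 and 0.15) unless the replicate number was taken as a block (adjusted p = 0.0271 and 0.0264). The third Gfra1 probe set (1421973_at), annotated with the same source sequence as the second, passed the filter level on only 1 array. It read 59, 146 and 78 in R+, against 14, 18 and 18 in R-, 4, 14 and 18 in C+, and 3, 19 and 15 in C-. R+ was again the highest population.

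Gfra2, the neurturin receptor, gave no pattern shared by its 3 tested probe sets. One (1433716_x_at) was lower in R+, at 72, 183 and 125, against 282, 345 and 335 in R- (-1.36 ± 0.32, adjusted p = 0.0179). The groups did not overlap, but the call was lost when R+ replicate 1, R- replicate 2 or R- replicate 3 was left out (adjusted p up to 0.0762). The suffix _x marks probes that can also bind other transcripts. The same probe set read 116, 189 and 222 in C+, against 195, 249 and 261 in C-, which was not called (-0.44 ± 0.32, adjusted p = 0.528). The probe set without that suffix that passed the filter (1425579_at) lay between 66 and 351 over all arrays and gave 0.05 ± 0.47 for R+ against R- (adjusted p = 0.983). The groups overlapped, and the 95% confidence interval before adjustment ran from -0.97 to 1.06. The third, 1459847_x_at, lay between 37 and 204 and gave -0.71 ± 0.46 for R+ against R- (adjusted p = 0.504). The 2 Gfra2 probe sets that did not pass the filter read 3 to 120 and 12 to 84.

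Ret, the signalling kinase shared by the GFRα receptors, was highest in C+ by its only tested probe set. This probe set (1436359_at) read 519, 513 and 670 in C+, against 210, 298 and 236 in C-. In the rostral domain it read 103, 171 and 204 in R+, against 144, 179 and 145 in R-. The C+ arrays lay above all 9 others, and R+ overlapped R-. Ret was higher in C+ than in C- by 1.17 ± 0.26 (adjusted p = 0.0112), a call that was lost without C+ replicate 3 (adjusted p = 0.0579). For R+ against R- the difference was -0.01 ± 0.26 (adjusted p = 0.99), with a 95% confidence interval from -0.57 to 0.54 before adjustment. R+ was lower than C+ by a difference of -1.81 ± 0.26 (adjusted p = 0.00132), which was -1.43 with the beta-actin ratio as a covariate and did not pass (adjusted p = 0.11). The difference between the 2 domains' YFP differences, -1.18 ± 0.37, was not called (adjusted p = 0.367). R- against C- gave -0.63 ± 0.26 without overlap and was not called (adjusted p = 0.357). The second Ret probe set (1421359_at) did not pass the filter and was dim, at 25 to 116 over the 12 arrays. It read 64, 39 and 116 in R+, against 28, 28 and 44 in R-. In the caudal domain it read 55, 69 and 38 in C+, against 48, 25 and 93 in C-. C+ overlapped C- and R+ on it and was not the highest population.

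Other cells that express Ret at this stage are motor neurons and dopamine neurons. Of 10 motor neuron markers 9 were on the array and 5 passed the filter; 1, Isl1, was called, lower in C+ than in C-. The summed signal of the list was 754 to 1040 in C+ and 1185 to 2131 in C-, but without Isl1 it was 595 to 833 in C+ and 531 to 998 in C-, with overlap. The cholinergic genes Chat, Slc18a3 and Slc5a7 averaged 92.0, 64.0 and 67 in C+, against 63.3, 19.3 and 64.7 in C-. Chat was not called (adjusted p = 0.732), and Slc18a3 and Slc5a7 did not pass the filter. All other motor neuron markers on the array, Isl1, Isl2, Mnx1, Phox2a, Tbx20 and Lhx4, averaged lower in C+ than in C-. Of the 6 tested markers of dopamine and noradrenaline neurons 2 were called, both lower in C+ than in C-, with sums of 1100 to 1431 in C+ and 2046 to 2138 in C-. No listed marker was at 0 on any array, but no detection calls were used, so this does not show that the cells were present. Mnx1, a defining motor neuron gene, reached at most 84. The part of these cells in the Ret result was not tested.

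Gfra1 and Ret, which together form the GDNF receptor, differed in opposite directions between the serotonergic populations by their tested probe sets. Gfra1 was higher and Ret lower in R+ than in C+. Both comparisons use the same R+ and C+ arrays. The plot of signals by array shows this beside the neurotrophin receptors.

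**Figure D1:**
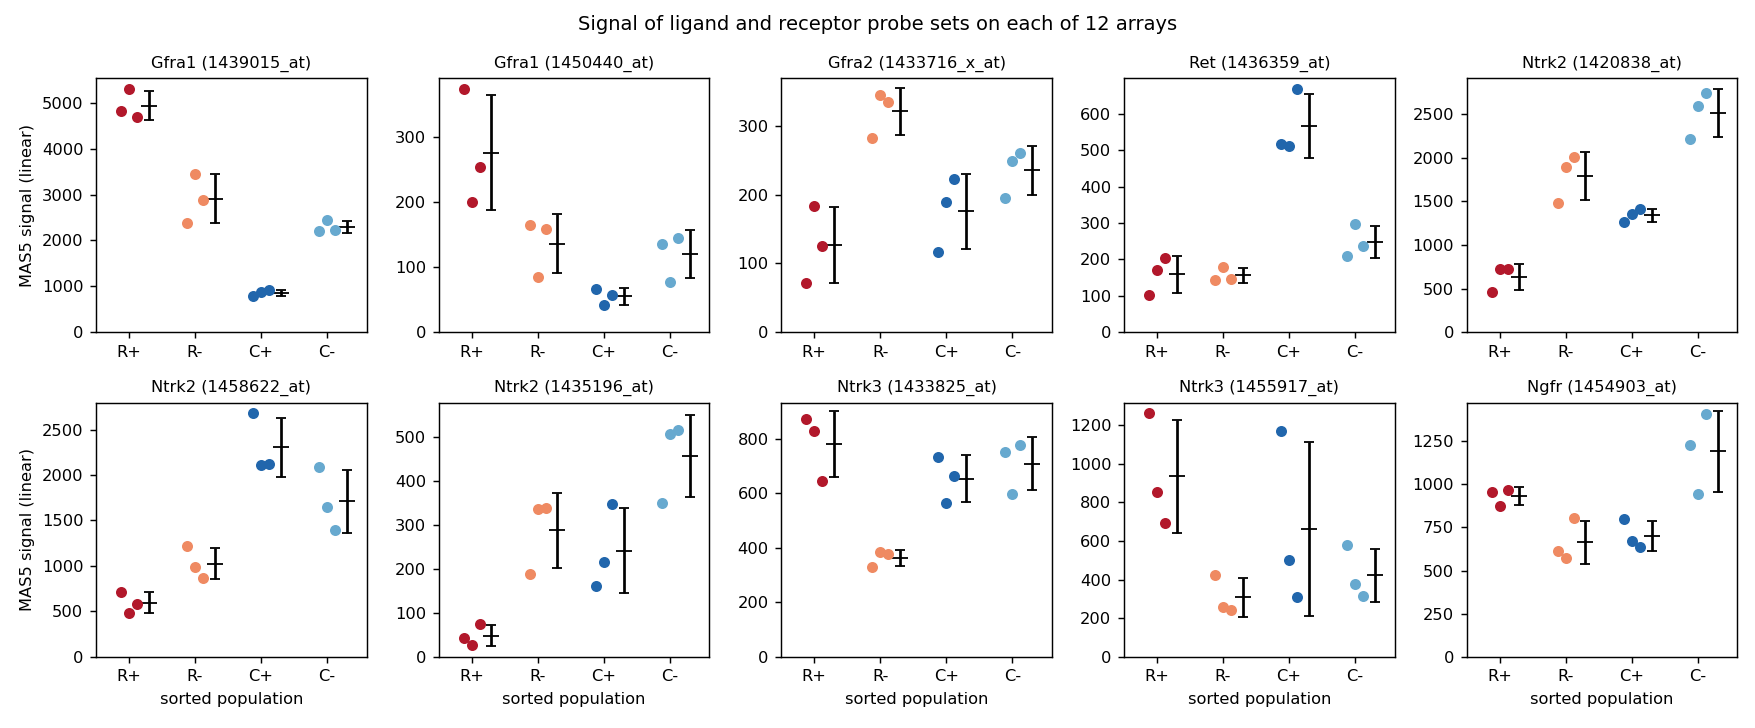
MAS5 signal (linear scale from 0) of the 10 member probe sets called in at least 1 comparison, in R+, R-, C+ and C-; points are single arrays and black bars the mean ± SD of 3 arrays. Gfra1 is highest in R+ and lowest in C+, Ret is highest in C+, and the 3 Ntrk2 probe sets are lowest in R+.

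Ntrk2, which encodes the BDNF receptor TrkB, was lower in R+ than in every other population by 3 of its 6 tested probe sets. The brightest of them (1420838_at) read 457, 725 and 720 in R+, against 1486, 1893 and 2010 in R-. It read 1265, 1351 and 1413 in C+, against 2211, 2597 and 2747 in C-. None of the 4 populations overlapped another on this probe set, with R+ lowest, then C+, then R- and then C-. The difference was -1.51 ± 0.19 for R+ against R- (adjusted p = 0.000163) and -0.90 ± 0.19 for C+ against C- (adjusted p = 0.0078), so that Ntrk2 fell in both YFP-positive populations by this measure. R+ against C+ gave -1.10 ± 0.19 (adjusted p = 0.00487), and the covariate of RNA quality left -0.70 (adjusted p = 0.247). R- against C- gave -0.49 ± 0.19, called only with the block (adjusted p = 0.309, and 0.0246 with the block).

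A second Ntrk2 probe set (1435196_at) followed the first, with a correlation of 0.94 over the 12 arrays. It read 43, 27 and 74 in R+, against 189, 337 and 339 in R-, and 161, 216 and 349 in C+, against 351, 509 and 516 in C-. The 3 R+ arrays were the lowest of all. The difference was -2.40 ± 0.36 for R+ against R- (adjusted p = 0.00078) and -2.13 ± 0.36 for R+ against C+ (adjusted p = 0.00481), the second being -1.43 with the beta-actin covariate (adjusted p = 0.245). For C+ against C- it was -0.94 ± 0.36 and passed only with the block (adjusted p = 0.156, and 0.0263 with the block). R- against C- gave -0.68 ± 0.36 and was not called (adjusted p = 0.507).

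The third (1458622_at) parted from these in the caudal domain. It read 717, 485 and 584 in R+, against 1214, 991 and 872 in R-, and 2681, 2111 and 2121 in C+, against 2084, 1651 and 1400 in C-. R+ was lowest, as before, but here C+ lay above C- without overlap. R+ against R- gave -0.78 ± 0.20 (adjusted p = 0.0263), lost under 6 of 23 alternatives, among them leaving out R+ replicate 2 or 3 or R- replicate 1 or 2 (adjusted p up to 0.142). R+ against C+ gave -1.94 ± 0.20 (adjusted p = 6.13e-05), which held under all 23 alternatives run on it. The YFP-negative cells differed in the same direction without overlap, R- against C- giving -0.73 ± 0.20. This was not called (adjusted p = 0.107), but passed with the block and with the beta-actin covariate (adjusted p = 0.00197 and 0.0336). C+ against C- gave 0.44 ± 0.20, with the sign opposite to that of 1420838_at and 1435196_at (adjusted p = 0.242, and 0.0199 with the block). Signals of mesenchyme, meninges and pericyte markers, cells that can express Ntrk2, summed to 655 to 823 in R+ against 1024 to 1676 in R-, and to 2996 to 3353 in C+ against 2615 to 3823 in C-. Dcn, at an average of 2345 in C+ against 417 in C-, made up most of the C+ sum, and without it the list summed to 818 to 902 in C+ against 2269 to 3366 in C-. Of the 6 tested markers 3 were called lower in R+ than in R-, and caudally Col1a2, Col3a1 and Pdgfrb were called lower and Dcn higher in C+ than in C-. The sums of the whole list overlapped between C+ and C-, and its markers did not share a direction there. The part of these cells in the Ntrk2 results was not tested. The change in Ntrk2 across the caudal domain therefore depends on the probe set, and which transcripts each one detects was not tested.

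The remaining 3 tested Ntrk2 probe sets were called in no comparison. The pair 1437560_at and 1435305_at correlated at 0.737 with each other over the 12 arrays, and at -0.206 and -0.191 with 1420838_at. They reached 1616 and 599 in C+ replicate 1, and their differences for C+ against C- were 1.22 ± 0.60 and 0.58 ± 0.41 (adjusted p = 0.294 and 0.506, and 0.0411 and 0.0356 with the block). The 3 arrays of a group varied widely on both. The last, 1446712_at, lay between 43 and 154, and the 2 Ntrk2 probe sets that did not pass the filter read 30 to 107 and 6 to 150.

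Ntrk3, which encodes the neurotrophin-3 receptor TrkC, was higher in R+ than in R-. Its brightest probe set (1433825_at) read 872, 826 and 643 in R+, against 330, 383 and 376 in R-, and 734, 563 and 662 in C+, against 749, 596 and 776 in C-. R- lay below the other 3 populations, which overlapped one another. The difference was 1.07 ± 0.18 for R+ against R- (adjusted p = 0.00161) and -0.94 ± 0.18 for R- against C- (adjusted p = 0.0164). The first held under all 24 alternatives and the second failed under 8 of 24 (adjusted p up to 0.155). C+ against C- gave -0.11 ± 0.18 (adjusted p = 0.815), with a 95% confidence interval from -0.50 to 0.27 before adjustment. R+ against C+ gave 0.25 ± 0.18 (adjusted p = 0.498).

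Another Ntrk3 probe set (1455917_at) was also higher in R+, at 1262, 852 and 695, against 423, 260 and 240 in R- (1.58 ± 0.41, adjusted p = 0.0291). The call was lost under 6 of 23 alternatives, including without R+ replicate 1 or 2 or R- replicate 2 or 3 (adjusted p up to 0.125). In C+ it read 1170, 503 and 312, against 577, 377 and 314 in C-, with overlap. The other 2 tested Ntrk3 probe sets had positive differences for R+ against R-, 0.87 ± 0.34 and 0.70 ± 0.44, that did not pass (adjusted p = 0.175 and 0.482). The 4 that did not pass the filter reached at most 54, 87, 99 and 166.

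Ngfr, the receptor that binds all neurotrophins, was lower in C+ than in C-. The tested probe set (1454903_at) read 800, 672 and 634 in C+, against 1226, 943 and 1408 in C-. In the rostral domain it read 953, 872 and 969 in R+, against 612, 570 and 807 in R-. Neither pair overlapped, and the direction differed between the domains. C+ against C- gave -0.74 ± 0.19 (adjusted p = 0.0227), lost under 6 of 24 alternatives, among them leaving out C+ replicate 2 or 3 or C- replicate 1 or 3 (adjusted p up to 0.118). R+ against R- gave 0.50 ± 0.19 (adjusted p = 0.149, and 0.0359 with the block). The difference between the 2 was 1.24 ± 0.26 and was not called (adjusted p = 0.0605), but passed under 5 of 23 alternatives, among them the block (adjusted p = 0.00593) and leaving out C+ replicate 1 or C- replicate 2. R- was lower than C- by a difference of -0.83 ± 0.19 (adjusted p = 0.0405), which failed under 15 of 24 alternatives. The other 2 Ngfr probe sets read 5 to 39 on the 12 arrays.

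Markers of sensory ganglia and neural crest, cells known to express Ngfr, moved with this gene in the caudal domain. Of 10 listed 8 were on the array and 6 passed the filter, and 2 of the 6, Pou4f1 and Foxd3, were called lower in C+ than in C-. Both were also called lower in R+ than in R- (-2.8, adjusted p = 2.94e-06, and -2.39, adjusted p = 0.0102), where Ngfr had the opposite sign. The summed signal of the list was 782 to 1271 in C+ and 5511 to 7246 in C-, and 584 to 1011 in R+ and 2479 to 3411 in R-. Pou4f1, which is also made by neurons within the midbrain and hindbrain, supplied most of it at an average of 5013 in C-, and without it the sum was 428 to 651 in C+ and 1129 to 1748 in C-, and 339 to 732 in R+ and 751 to 1017 in R-. Among the tested markers only the crest and glial gene Sox10 had differences of the same signs as Ngfr in both domains, and it was not called. It averaged 193 in R+ and 108 in R- (0.72, adjusted p = 0.307), and 119 in C+ and 217 in C- (-0.76, adjusted p = 0.251). All other tested markers of the list had negative differences for R+ against R-. The part of these cells in the Ngfr result was not tested.

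The ligands were at or near the lower range of the arrays. Bdnf was tested through 1 probe set (1422169_a_at), which read 77, 207 and 189 in R+, against 202, 166 and 199 in R-, and 50, 79 and 22 in C+, against 133, 184 and 38 in C-. R+ overlapped both R- and C+, and C- overlapped both C+ and R-. R+ against C+ gave 1.49 ± 0.54, called only with the block (adjusted p = 0.15, and 0.0482 with the block). The other Bdnf probe set read 14 to 100, and Gdnf 2 to 29. At signals such as those of Gdnf and the second Bdnf probe set, a ligand made by few cells of a population might not be detectable here.

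Counted together, 7 of the 18 tested member probe sets, from 4 genes, were called for R+ against R-: 3 were higher in R+ and 4 lower, where 7.67% of all tested probe sets were called. Between C+ and C- 4 were called, from 4 genes, 1 higher in C+ and 3 lower (8.2% of all tested). Between R+ and C+ 6 were called, from 3 genes, 2 higher and 4 lower in R+ (3.78% of all). Between R- and C- the count was 2, both lower in R- (1.49% of all), and the difference between the domains' YFP differences was called for 1 (0.522% of all). Several probe sets measure the same gene, and the members were chosen with earlier results of these data known, so these counts describe the genes and test nothing about the group. The comparisons also share arrays. The median difference over the 18 was 0.04 for R+ against R-, beside 0.02 over all tested probe sets, and -0.06 for R+ against C+, beside -0.02 over all.

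**Figure D2:**
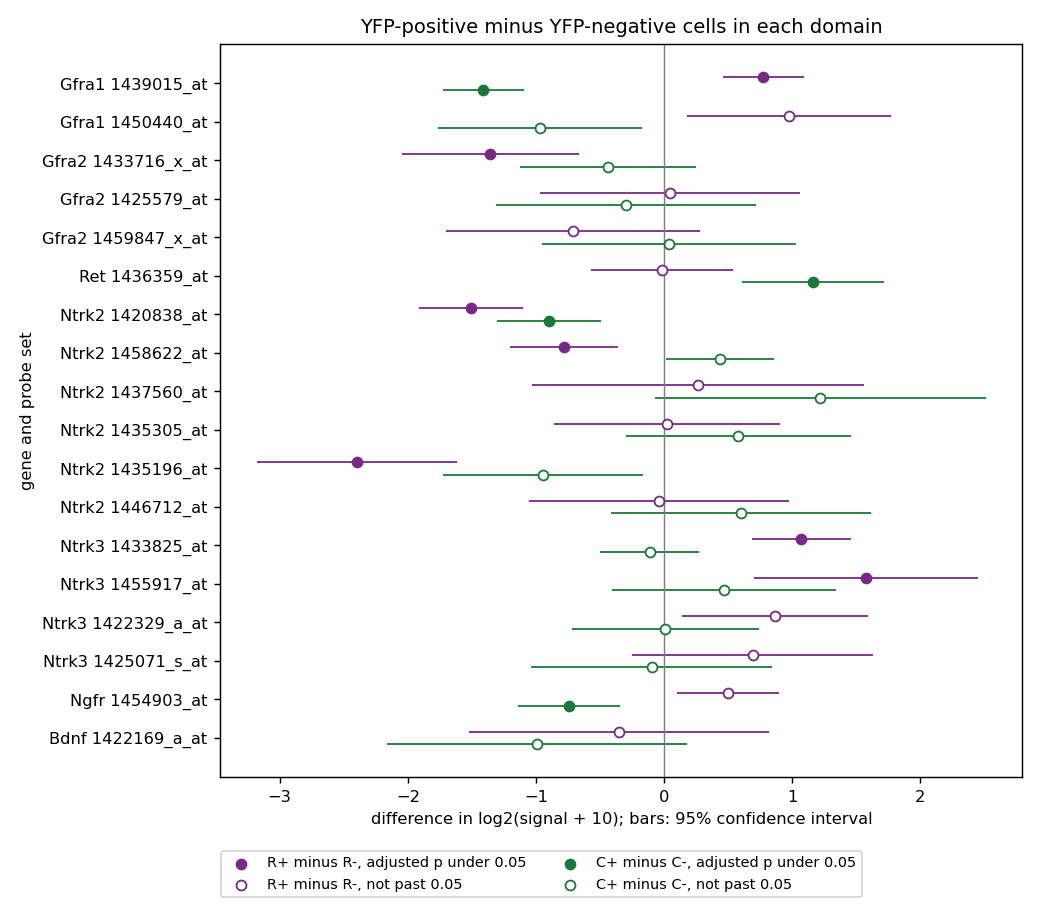
Difference in log2(signal + 10) between YFP-positive and YFP-negative cells for the 18 tested member probe sets, R+ minus R- in purple and C+ minus C- in green, with 95% confidence intervals before adjustment; filled points passed an adjusted p of 0.05. The Gfra1 and Ngfr pairs lie on opposite sides of 0.

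The replicate numbers were taken to pair the arrays, which the labels do not state. With them as a block 9, 9, 10, 4 and 5 of the 18 were called in the same 5 comparisons. Over all tested probe sets the block called 14.4%, 16.4%, 16.6%, 6.79% and 1.61%. Within each number, the difference for the brightest Gfra1 probe set was 1.02, 0.62 and 0.70 for R+ minus R- and -1.47, -1.48 and -1.28 for C+ minus C-. For Ngfr it was 0.63, 0.61 and 0.26 rostrally and -0.61, -0.48 and -1.14 caudally. Both genes had a positive rostral and a negative caudal difference in 3 of 3 numbers. For Ntrk2 probe set 1458622_at the signs were reversed, at -0.75, -1.02 and -0.57 rostrally and 0.36, 0.35 and 0.60 caudally.

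**Figure D3:**
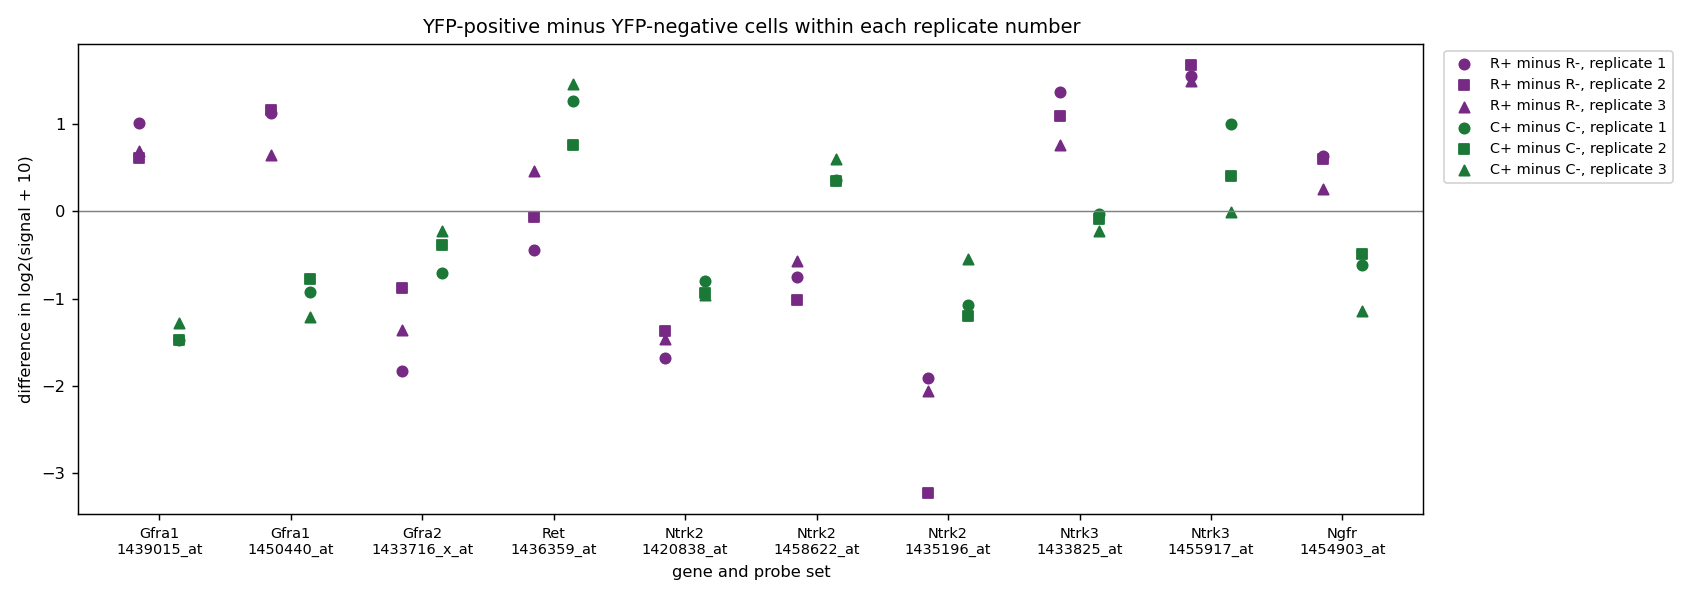
Difference in log2(signal + 10) between the YFP-positive and YFP-negative array of the same replicate number, rostral in purple and caudal in green, for the 10 member probe sets called in at least 1 comparison; symbols mark the replicate number. Gfra1 and Ngfr are above 0 rostrally and below 0 caudally in 3 of 3 numbers, and Ret is above 0 caudally in 3 of 3.

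**Figure D4:**
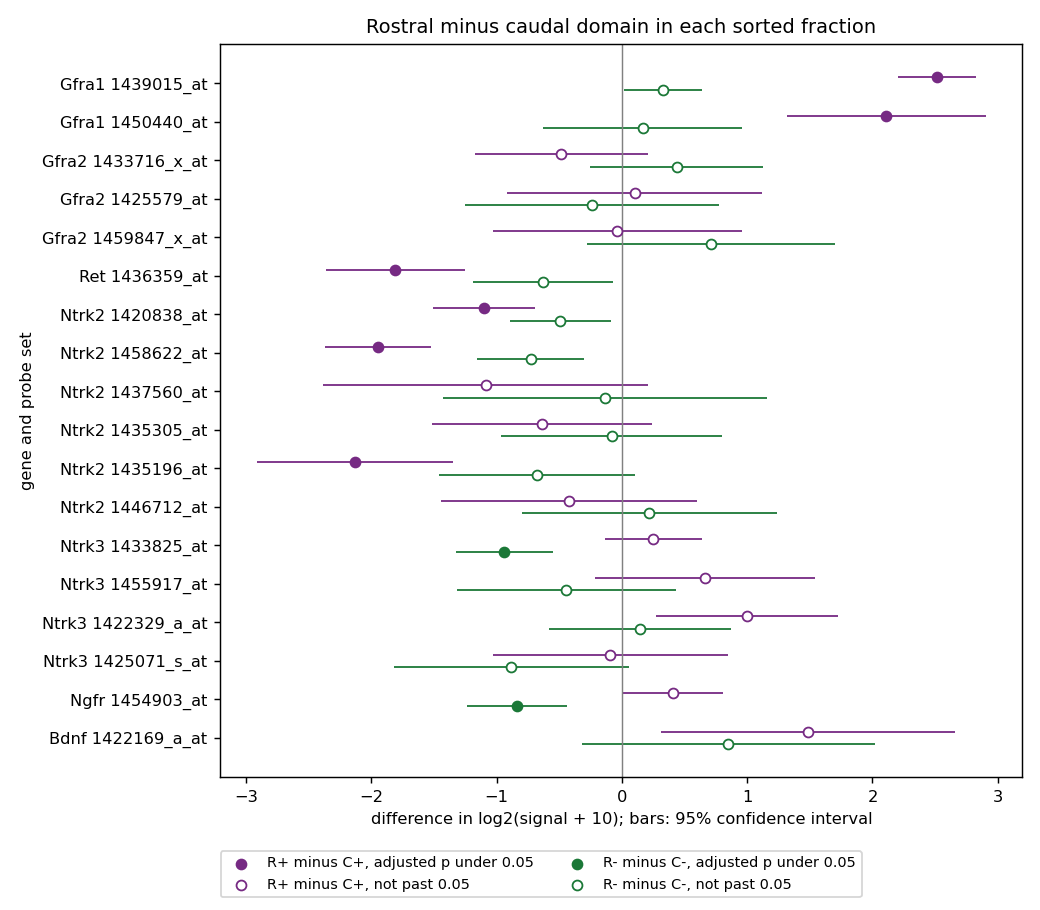
Difference in log2(signal + 10) between the rostral and caudal domain for the 18 tested member probe sets, R+ minus C+ in purple and R- minus C- in green, with 95% confidence intervals before adjustment; filled points passed an adjusted p of 0.05. The Gfra1 probe sets lie to the right of 0, and Ret and the 6 Ntrk2 probe sets, 3 of them filled, to the left, in the YFP-positive comparison.

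Other genes of the pathways were taken from 6 lists of 69 genes, of which 59 were on the array and 53 had a probe set past the filter, each gene read from its brightest one. The counts were 12 of 53 for R+ against R- (10.5% of all genes tested), 7 for C+ against C- (11.1%), 5 for R+ against C+ (4.87%), 2 for R- against C- (2.09%) and 3 for the difference between the domains' YFP differences (0.817%). These too were chosen with earlier results in view. Apart from the block, results under the alternatives were recorded gene by gene for the members only. The R+ against C+ results of the list genes therefore have no check with the beta-actin covariate.

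Among 5 tested ligands and receptors of the GDNF family, 1 was higher and 1 lower in R+ than in R-. Sdc3, a heparan sulphate proteoglycan known to bind GDNF, averaged 2452 ± 722 in R+ and 1218 ± 321 in R- (SD, n = 3 each; 0.996 ± 0.25, adjusted p = 0.0249). Nrtn, which encodes neurturin, averaged 185 ± 33.1 in R+ and 471 ± 87.3 in R- (-1.30 ± 0.33, adjusted p = 0.0253). Nrtn was also higher in R- than in C- (1.66 ± 0.33, adjusted p = 0.0202). By limma none of the 5 was called for C+ against C- or R+ against C+, and 0 had an unadjusted p under 0.05 there. Ncam1, an alternative receptor of GDNF with a GFRα partner, gave 0.24 ± 0.12 for R+ against R- (adjusted p = 0.31).

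Of 5 tested neurotrophin ligands and receptors, the sortilin-related receptors Sorcs1 and Sorcs3 were the called ones without the block. With it their relative Sorl1 was called lower in R+ than in C+ (-1.43 ± 0.44, adjusted p = 0.0914, and 0.000526 with the block) and in R- than in C- (-1.27 ± 0.44, adjusted p = 0.25, and 0.00223 with the block). Sorcs1 averaged 811 ± 90.4 in R+ against 134 ± 28.0 in R-, and 320 ± 122 in C+ against 213 ± 47.6 in C-. It was higher in R+ than in R- (2.53 ± 0.29, adjusted p = 7.47e-05) and than in C+ (1.39 ± 0.29, adjusted p = 0.0174). Sorcs3 averaged 914 ± 107 in R+ against 526 ± 67.4 in R-, and 1785 ± 58.5 in C+ against 443 ± 68.5 in C-. It was higher in both YFP-positive populations (0.79 ± 0.17, adjusted p = 0.00837, and 2.00 ± 0.17, adjusted p = 3.38e-06) and lower in R+ than in C+ (-0.96 ± 0.17, adjusted p = 0.00487). The 2 genes thus led in different domains, and the difference of their YFP differences was called for each, at 2.02 ± 0.41 for Sorcs1 (adjusted p = 0.0477) and -1.21 ± 0.23 for Sorcs3 (adjusted p = 0.0348). Sortilin itself, Sort1, gave -0.02 ± 0.14 rostrally and -0.19 ± 0.14 caudally (adjusted p = 0.973 and 0.512).

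Of 5 tested proteases that process neurotrophin precursors, Pcsk5, a proprotein convertase, was called. It averaged 2463 ± 637 in R+ against 86.0 ± 21.4 in R-, and 393 ± 89.9 in C+ against 119 ± 49.7 in C-. The differences were 4.68 ± 0.31 for R+ against R- (adjusted p = 5.41e-07), 1.70 ± 0.31 for C+ against C- (adjusted p = 0.00275) and 2.61 ± 0.31 for R+ against C+ (adjusted p = 0.000232). The rostral YFP difference was larger than the caudal one by 2.98 ± 0.43 (adjusted p = 0.00538). Furin gave 0.24 ± 0.18 and 0.15 ± 0.18 in the 2 domains (adjusted p = 0.599 and 0.734).

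Of 15 tested feedback regulators and targets of receptor tyrosine kinases, 6 were lower and none higher in R+ than in R-. Over all genes 10.5% were called there. In C+ against C- 4 were lower and none higher, where 11.1% of all genes were called. The block called 2 higher and 7 lower caudally, and 16.4% of all tested probe sets. The median difference of the list was -0.68 for R+ against R- and -0.42 for C+ against C-, beside -0.01 and -0.04 over all genes. Spry2, an inhibitor of kinase signalling, averaged 648 ± 64.1 in R+ and 1458 ± 102 in R- (-1.16 ± 0.18, adjusted p = 0.000869), and 335 ± 71.5 in C+ and 1007 ± 129 in C- (-1.57 ± 0.18, adjusted p = 5.89e-05). Lrig1, a membrane protein known to restrain Ret, averaged 140.0 ± 37.0 in R+ and 608 ± 169 in R- (-2.03 ± 0.27, adjusted p = 0.000302). Its caudal difference was -1.71 ± 0.27 (adjusted p = 0.00113). Spry1, a relative of Spry2, was lower in R+ than in R- (-1.33 ± 0.27, adjusted p = 0.00651) and higher in R- than in C- (1.40 ± 0.27, adjusted p = 0.0164). Spred1 fell in both, by differences of -1.32 ± 0.26 and -1.05 ± 0.26 (adjusted p = 0.00503 and 0.0199), as did Etv5, a transcription factor induced by such signals (-1.51 ± 0.32 and -1.15 ± 0.32, adjusted p = 0.00873 and 0.0398). Several of these genes are also made by dividing progenitors, whose markers had a summed signal of 18572 to 20878 in R+ against 46803 to 55918 in R-, and 19196 to 25820 in C+ against 48874 to 49354 in C-. Their part in the result was not tested. Between R+ and C+ 2 of the 15 were called, 1 in each direction, where 4.87% of all genes were. With the block 5 were called, where 16.6% of all tested probe sets were. Spry2 was higher in R+ (0.95 ± 0.18, adjusted p = 0.00953). Islr2, a membrane protein known to act with Ret and Trk receptors, was lower, at 126 ± 52.3 in R+ against 1794 ± 662 in C+ (-3.75 ± 0.85, adjusted p = 0.0269). Its arrays varied widely in the YFP-negative cells, at 785 ± 501 in R- and 555 ± 517 in C-.

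**Figure D5:**
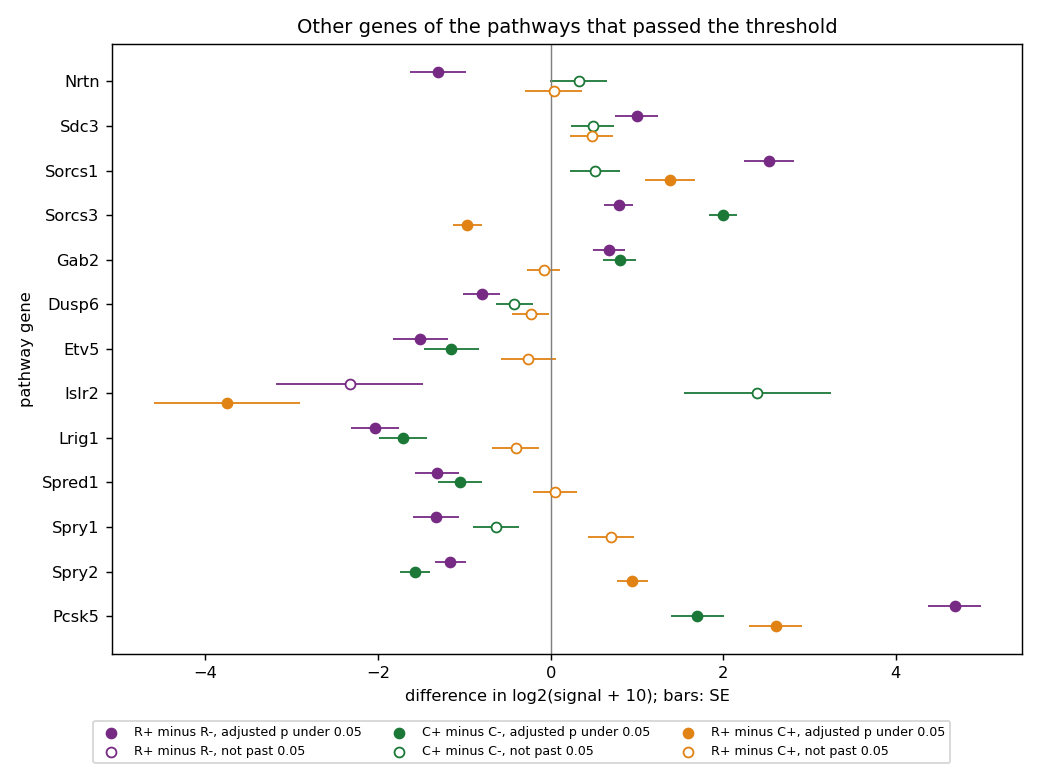
Difference in log2(signal + 10) with SE for the 13 other pathway genes called in at least one of R+ minus R- (purple), C+ minus C- (green) and R+ minus C+ (orange); filled points passed an adjusted p of 0.05. Sorcs1 and Pcsk5 are furthest to the right in R+ minus R-, and 6 of the 7 genes from Dusp6 to Spry2 are filled to the left of 0 in that comparison.

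Of 17 tested intracellular adaptors and effectors of Ret and the Trk receptors, 1 was called in each YFP comparison, where 10.5% and 11.1% of all genes were. This was the scaffold Gab2, which averaged 3814 ± 529.8 in R+ and 2403 ± 514 in R-, and 4052 ± 677 in C+ and 2324 ± 372 in C-. Its differences were 0.68 ± 0.19 and 0.80 ± 0.19 (adjusted p = 0.0449 and 0.0174). With the block Kidins220, a scaffold of Trk receptors, was called as well, at 0.42 ± 0.13 rostrally and 0.34 ± 0.13 caudally (adjusted p = 0.0807 and 0.167, and 0.00348 and 0.0134 with the block). By limma none of the 17 was called for R+ against C+, where 3 had an unadjusted p under 0.05 and 1, the adaptor Shc1, passed with the block (-0.98 ± 0.41, adjusted p = 0.21, and 0.0454 with the block). Of 6 partners of Ngfr, limma called none in either YFP comparison, while 3 rostrally and 2 caudally had an unadjusted p under 0.05, and 2 in each domain passed with the block.

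The genes whose signal ran most nearly parallel to Gfra1 over the 12 arrays were A930009L07Rik, Pcdh19 and Fam220a, with Pearson correlations of 0.972, 0.933 and 0.916. For Ret they were Mterf3, Htr2c, a serotonin receptor gene, and Zranb2, at 0.965, 0.965 and 0.957. For Ntrk2 they were Col1a1, Smad3 and Pid1, at 0.978, 0.976 and 0.972, and for Ntrk3 Caskin1, B3gat1 and Trim67, at 0.953, 0.911 and 0.893. Pik3r2, Klc4 and Slc37a4 came nearest to Ngfr, at 0.867, 0.855 and 0.833. For Bdnf they were Pmel, Atp5c1 and H2-Ke6, at 0.915, 0.90 and 0.885, and for Gfra2 Cyp4a31, D630033O11Rik and Cdcp1, at 0.942, 0.926 and 0.877. These are the highest of 12845 genes for each member, over arrays that fall into 4 groups, and are given as a description.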

How the data were processed

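Values were taken from 12 arrays in 4 groups of 3, grouped by their titles. Per the submitters' processing notes the authors used MAS5, and its signal intensity was deposited unlogged; the version is not given in the sources used here. All values are whole numbers, and trimming 2% from each end left a mean of 500 on every array. No detection calls were used. The median signal was 93 to 121, and precision is limited by the number of arrays. Of 45101 probe sets 64 controls were left out, and 26061 passed the filter.

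limma 3.58.1 in R 4.3.3 was fitted to log2(signal + 10) of the 12 arrays together, with a mean for each group, with a trended prior and 5 two-sided contrasts. A gene was read from its brightest probe set (12845 genes), with _x_at probe sets used where nothing else was there. Named genes were all members, and per list and comparison up to 4 called genes with the smallest adjusted p; Ncam1, Sort1, Furin, Sorl1, Kidins220, Shc1 and the genes plotted beyond these 4 were added after their values were seen. The members and lists were chosen with earlier results of these data known, and marker sums without a list's brightest gene were added after the sums were seen. Likeness was the Pearson correlation over the 12 arrays.

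Deviations from the group means correlated at 0.169 to 0.597 between arrays of the same replicate number (18 pairs) and at -0.468 to 0.318 between other numbers (36 pairs), so the numbers were taken to pair the arrays. The range was 0.417 to 0.597 within replicate 1, but 0.169 to 0.239 within replicate 2 and 0.19 to 0.272 within replicate 3. The last 2 lie under the highest value between other numbers, so the pairing rests mostly on replicate 1. Data simulated for the comparison of R+ with R-, over 26061 probe sets, were used to check the fit: of changes of 0.5, 1 and 2 on the log2 scale, 2.99%, 28.4% and 69.7% were recovered. There were 17 false calls among 129305 unchanged probe sets over 5 runs. Each run changed 200 probe sets, fewer than the 1999 called in the data, and drew noise independently for each array. Recovery in the data can therefore differ. Alternatives were the block, 2 other offsets and filters, 2 normalizations, 1 probe set per gene, no trend, fewer arrays and a covariate of RNA quality.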

Additional observations from a re-analysis of the deposited data

Results flagged for a closer look

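The difference between YFP-positive and YFP-negative cells differed between the rostral and caudal domain for Gfra1 (1439015_at), by 2.19 ± 0.21 on the log2 scale (limma adjusted p = 0.000132, and 2.1e-06 with the replicate number as a block), with 0.78 rostrally and -1.41 caudally. Without the block 4 more probe sets were not called, and with it they were. These were Ngfr (1454903_at) at 1.24 ± 0.26 (adjusted p = 0.0605, and 0.00593 with the block), Ntrk3 (1433825_at) at 1.19 ± 0.25 (0.0658 and 0.0161), Ntrk2 (1458622_at) at -1.22 ± 0.28 (0.0914 and 0.00123) and the second Gfra1 probe set (1450440_at) at 1.95 ± 0.52 (0.20 and 0.0192). The rostral and caudal differences of Ngfr, of Ntrk2 and of this Gfra1 probe set had opposite signs, 0.50 and -0.74, -0.78 and 0.44, and 0.98 and -0.97. For Ntrk3 they were 1.07 and -0.11. Ngfr, Ntrk3 and this Ntrk2 probe set also passed under other settings than the block, 5, 4 and 3 settings in all. No group was large enough to look for outlying arrays.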

How the results depend on the processing

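Of 20 called member results, 9 passed under every one of the 24 other settings that could be run on them, and none changed sign under any setting. Of 471 recalculations 422 kept the call. Of the 70 uncalled results 17 passed under at least 1 setting. The replicate block raised the count of called member probe sets to 9 for C+ against C-, 10 for R+ against C+, 4 for R- against C- and 5 for the difference of differences. The shares over all tested probe sets rose as well, to 16.4%, 16.6%, 6.79% and 1.61%. With 1 probe set per gene, which leaves 7 member probe sets, the counts were 3 for R+ against R-, 3 for R+ against C+ and 3 for the difference of differences. Over all genes the shares were 12.2%, 7.32% and 1.17%. The beta-actin ratio as a covariate left 2 for R+ against C+ and 1 for R- against C-, and gave 2 for the difference of differences. Over all tested probe sets it called 0.871%, 0.733% and 0.702%. For R+ against C+ the share without it was 3.78%, so the drop was not limited to the members. The ratio follows the domain. For R- against C- limma called 0 after median scaling, with only the arrays compared or without replicate 1 (6 with an unadjusted p under 0.05 in each), and 1 with no filter or no trend. Over all tested probe sets the share was also lower than without these settings, except when replicate 1 was left out, where it was higher. For the difference of differences the count was 2 with quantile normalization (0.537% of all), 3 with the stricter filter (0.886%) and 2 without replicate 1 (0.779%). Leaving out single arrays gave 4 to 7 for R+ against R- (4 without R- replicate 2), 2 to 4 for C+ against C- (2 without C+ replicate 3), 6 to 7 for R+ against C+, 0 to 2 for R- against C- (4 to 7 with an unadjusted p under 0.05) and 1 to 2 for the difference of differences (2 without C+ replicate 1 or C- replicate 2). In the same order the shares over all tested probe sets were 4.9% to 8.55%, 5.48% to 8.68%, 1.51% to 8.71%, 0.783% to 1.66% and 0.261% to 0.633%. For R- against C- the count was 0 without R- replicate 1, C- replicate 1 or C- replicate 3, and 1 without any other array except C+ replicate 1 and C- replicate 2. Dim probe sets, such as those of Gdnf and Bdnf, are limited by signal over background, and their folds depend on the offset. The causes of these changes were not tested.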
